A study of Mus musculus with 20 samples.

Results

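Variable gene-end regions are stretches of open chromatin at the start or end of protein-coding genes with a peak in some mouse brain endothelial libraries and not in others. They were chosen by their calls. Overlapping peaks (1 bp) of all 20 libraries were merged on chromosomes 1 to 19, and a region was kept when 5 to 15 libraries had a peak in it, when it was under 2000 bp wide and when no more than 1000 bp separated it from the annotated start or end of a protein-coding gene. This gave 1662 of 51424 merged regions and of 11896 regions at gene ends. The libraries came from ATAC-seq, an assay which reads out open chromatin through the cuts of a transposase, on sorted cerebral endothelial cells of wild-type C57BL/6 mice with no treatment named in the labels. There was 1 library per animal, from 4 animals at 2 months of age, 5 at 6 months, 5 at 12 and 6 at 18 months, 8 being male and 12 female, and the comparison asked how open chromatin differs between ages. The cells were enriched by sorting, so that what is measured is a mixture, and fewer cells with an open region and less opening per cell cannot be told apart.

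At a transcription start, open chromatin is where the core promoter, general transcription factors and RNA polymerase II meet. Promoters rich in CpG dinucleotides are commonly open in many cell types, including cells that transcribe the gene little, while CpG-poor promoters are more often open only where the gene is used. Open chromatin also occurs at the 3′ end of genes, near polyadenylation and termination sites and at enhancers that lie there.

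6 promoters of named regions are shown here to let their base composition be compared. Unc13a and H2-Q6 were called more often with age, and Tapbp belongs to the antigen presentation list. Vav3 was called in more young than old libraries without passing the test. H2-Eb1 and H2ac4 have the fewest CpG dinucleotides of the 6. Each line gives the 150 bases just before the annotated start, read 5′ to 3′ on the gene's strand, from RefSeq (GRCm38.p6, the assembly of mm10). Capitals mark matches, on either strand, to the GC box (GGGCGG), the CCAAT box (CCAAT) or the TATA box (TATAAA).
Unc13a, chr8:71671758-71671907, minus strand: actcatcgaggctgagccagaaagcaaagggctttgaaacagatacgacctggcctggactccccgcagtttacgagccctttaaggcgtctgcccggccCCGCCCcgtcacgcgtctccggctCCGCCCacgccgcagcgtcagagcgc
H2-Q6, chr17:35424700-35424849, plus strand: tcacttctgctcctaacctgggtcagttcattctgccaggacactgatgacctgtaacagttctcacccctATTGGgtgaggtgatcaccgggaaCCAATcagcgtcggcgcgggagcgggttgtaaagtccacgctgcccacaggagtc
Tapbp, chr17:33919328-33919477, plus strand: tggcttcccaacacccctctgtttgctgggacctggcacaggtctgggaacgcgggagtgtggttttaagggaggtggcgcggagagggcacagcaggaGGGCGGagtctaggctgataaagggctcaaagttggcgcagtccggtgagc
Vav3, chr3:109340533-109340682, plus strand: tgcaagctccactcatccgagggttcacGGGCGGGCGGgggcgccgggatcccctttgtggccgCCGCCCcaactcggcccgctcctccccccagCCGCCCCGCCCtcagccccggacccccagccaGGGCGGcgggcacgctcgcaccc
H2-Eb1, chr17:34305717-34305866, plus strand: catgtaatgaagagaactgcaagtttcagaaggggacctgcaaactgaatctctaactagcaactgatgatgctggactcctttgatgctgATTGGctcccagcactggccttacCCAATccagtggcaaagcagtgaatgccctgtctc
H2ac4, chr13:23750938-23751087, plus strand: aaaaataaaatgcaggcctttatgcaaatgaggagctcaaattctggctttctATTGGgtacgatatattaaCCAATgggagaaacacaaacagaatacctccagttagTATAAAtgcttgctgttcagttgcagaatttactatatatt
The stretch of Vav3, which encodes a guanine nucleotide exchange factor, held 17 CpG dinucleotides and that of Unc13a, which encodes a synaptic vesicle priming protein, held 16. The class I gene H2-Q6 and Tapbp, which encodes tapasin, had 7 each. The class II gene H2-Eb1 had 0 and the histone gene H2ac4 had 1. CCAAT boxes were the matches in both histocompatibility genes, and H2ac4 carried the TATA box.

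Over all variable regions with an annotated start in the region or within 250 bp of it (724), the promoter window of 300 bases lay between the constantly open promoters and all promoters in composition. The ratio of observed to expected CpG dinucleotides was 0.6 or more in 63.4% of them, in 84.5% of the 5251 promoters at regions called in all 20 libraries, and in 48.9% of all 20085 promoters of protein-coding genes. The median GC content was 59.7%, 63.0% and 57.0% in the same order. Of the 34 variable promoters called more often with age, 44.1% had a CpG ratio of 0.6 or more, a share that was not tested. Motif matches were ordered the same way for the GC box, with 59.9% of variable promoters, 74.3% of constant ones and 47.0% of all, and for the ETS motif (CCGGAA), with 23.6%, 33.0% and 19.1%. The CCAAT box was in 34.4% of variable promoters and 38.1% of all, and the NRF1 motif in 6.22% and 6.55%, so that these were not more frequent at variable promoters than at promoters in general. The TATA box was in 8.56% of variable promoters, 5.50% of constant ones and 12.7% of all. Among motifs of factor families active in endothelial cells, that of ETS was thus more frequent at variable promoters than at all promoters. The ETS motif itself holds a CpG dinucleotide, and variable promoters had a high CpG ratio more often than all promoters. Whether its frequency goes beyond this base composition was not tested. The SOX motif (ACAATGG) and the FOX motif (TGTTTAC) were each in 2.07% of variable promoters, against 2.87% and 3.04% of all and 1.60% and 2.48% of constant ones. The motif AGATAA of the GATA family was in 8.15% of variable promoters, 9.57% of all and 4.59% of constant ones. For the 7 further motifs searched, the shares in variable promoters and in all promoters were 3.87% and 2.30% for CRE (TGACGTCA), 9.94% and 7.89% for the E-box (CACGTG), 4.01% and 3.12% for YY1 (AANATGGCG), 5.52% and 7.06% for AP-1 (TGANTCA), 0.552% and 0.672% for ZBTB33, 3.73% and 3.65% for KLF (CCACACCC), and 0.967% and 0.682% for RFX (GTTGCCATG). All motifs were searched on both strands, and the GC-rich ones can overlap each other.

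**Figure D1:**
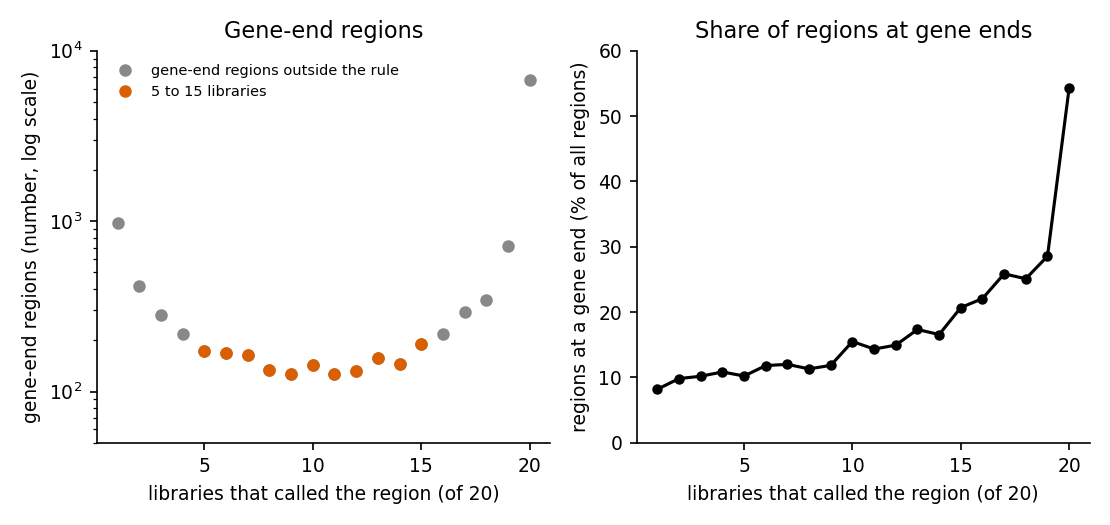
The left panel plots the number of gene-end regions (log scale) against the number of libraries, of 20, that called them, with the regions called in 5 to 15 libraries in orange. The right panel plots the share of all merged regions that lie at a gene end, and shows that this share is highest for regions called in all 20 libraries.

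The variable regions were narrower, fainter and less often on a gene's start than the gene ends open in every library. Their median width was 570 bp (range 265 to 1834 bp), against 1086 bp for the 6777 gene-end regions called in all 20 libraries. Variable regions away from gene ends had a similar median of 527 bp, and a merged region can only widen with each further library that calls it. An annotated gene end lay inside 54.5% of them and inside 90.1% of the constant ones. Of the variable regions, 1022 were at a start, 266 at the transcription end alone, and 374 at genes whose strand the promoter table did not give. Starts made up 79.3% of the variable regions with a known strand and 97.4% of the constant ones. Ends of 2 or more genes lay near 10.6% of variable and 19.2% of constant regions, and starts of both strands, as at bidirectional promoters, near 2.89% and 10.5%. In the deposited fold enrichment, a peak's pileup over its local background as the authors' peak caller gave it, the median peak in a variable region was 3.67 to 5.41 across the 20 libraries, and the median peak in a constant region 7.29 to 10.5. Ranked within its own list by −log10 q, the median variable peak stood at the 12.8th to 37.1st percentile, and the median constant peak at the 71.8th to 85.3rd. The rule chose on calls, which need a peak to pass the threshold, so these values describe the regions and were not tested.

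At the edges of the rule, 174 gene-end regions were called in 5 libraries and 217 in 4, and 191 were called in 15 and 217 in 16. The region farthest inside the distance limit lay 999 bp from an end of Lrrc32, which encodes a carrier of latent TGF-beta, and the nearest one outside lay 1001 bp from an end of Hexim2, whose product inhibits the elongation kinase P-TEFb. The widest was at Tjp1, the gene for the tight junction scaffold ZO-1, with 1834 bp.

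Summits, the points of highest pileup, sat close to the annotated start in both classes but were shifted downstream in the variable one. The median summit lay 20 bp upstream of the start (-20 bp) in variable regions and 51 bp upstream (-51 bp) in constant regions. It was upstream in 61.7% and 77.5% of them, and within 100 bp of the start in 66.3% and 67.4%. The summit's position differed between libraries by a median SD of 58.2 bp in variable and 37.6 bp in constant regions, a difference that also carries the smaller number of peaks and their lower pileup.

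**Figure D2:**
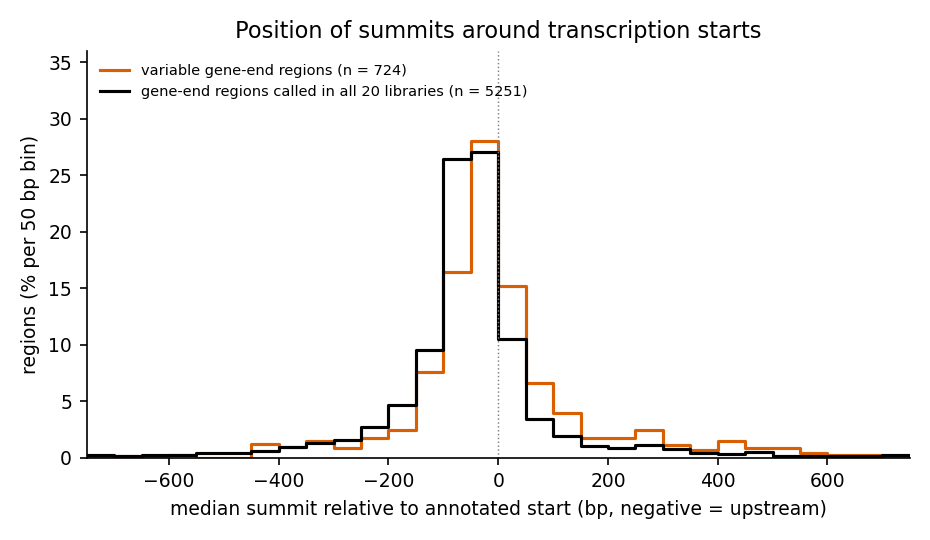
The share of regions in each 50 bp bin is plotted against the position of the median summit relative to the annotated start (bp, negative values upstream), for 724 variable (orange) and 5251 constant (black) gene-end regions. Both peak just upstream of the start, and the variable regions have more summits downstream of it.

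The 266 regions at a transcription end alone belonged to 281 genes. The annotated start of 124 of these genes was called in all 20 libraries, that of 29 in 16 to 19, of 30 in 5 to 15 and of 10 in 1 to 4, while 88 had no region within 1000 bp of the start. Abca1, which encodes the cholesterol efflux transporter, Cd34, the gene of a surface sialomucin of endothelial and progenitor cells, Cdkn1a, which encodes the cell cycle inhibitor p21, and Ctnnb1, the gene of beta-catenin, each had a variable region at this end. Peaks there were called in 9, 7, 8 and 7 libraries.

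The libraries held 19144 to 37162 peaks on these chromosomes. The lists were longest at 18 months (median 33205 peaks) and shortest at 6 months (21727), with 24052.5 at 2 months and 27763 at 12 months. Numbers in the names of the deposited lists fall into 3 sets, which the labels do not describe: all 3 libraries of set 1 are from 18 months, set 2 spans 2 months (1 animal), 12 months (5) and 18 months (3), and set 3 spans 2 months (3) and 6 months (5). Age and set can therefore be told apart only in part. Gene ends from an endothelial identity list were mostly open throughout: 20 of 30 such genes had an end called in all 20 libraries and 3 had no region. Of 86 marker genes of other cell types (pericytes, astrocytes, microglia, neurons, oligodendrocytes and fibroblasts), 9 had an end called in all 20 libraries, 64 had no region and 7 had a variable one. Among those with no region were the pericyte gene Rgs5, the astrocyte genes Gfap and Aqp4, the microglial genes Cx3cr1 and P2ry12, the neuronal gene Rbfox3, and Mbp and Mog of oligodendrocytes.

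The share of the 1662 regions that a library called ran from 14.7% to 94.2%. At 2 months the libraries called 17.9%, 28.6%, 47.3% and 83.1%. At 6 months they called 43.9%, 16%, 14.7%, 19.7% and 15.0%, and 3 of these 5 shares lay under all of those at 2 months. At 12 months the shares were 51.9%, 63.9%, 61.2%, 21.4% and 63.2%. At 18 months they ran from 46.7% to 94.2% with a median of 77.6%. The 18-month range overlapped those of 2 and of 12 months and lay above all 5 libraries of 6 months. Means were 44.2% ± 28.6 at 2 months (SD, n = 4), 21.9% ± 12.5 at 6 months (SD, n = 5), 52.3% ± 17.9 at 12 months (SD, n = 5) and 75% ± 15.7 at 18 months (SD, n = 6). Within set 2 the means were 52.3% ± 17.9 at 12 months (SD, n = 5) and 65.8% ± 16.9 at 18 months (SD, n = 3), with 17.9% in its only 2-month animal. Within set 3 they were 53.0% ± 27.7 at 2 months (SD, n = 3) and 21.9% ± 12.5 at 6 months (SD, n = 5), the younger age being the higher. Males called 51.4% ± 30.4 (SD, n = 8) and females 48.9% ± 25.1 (SD, n = 12), a difference much smaller than the spread in either sex.

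**Figure D3:**
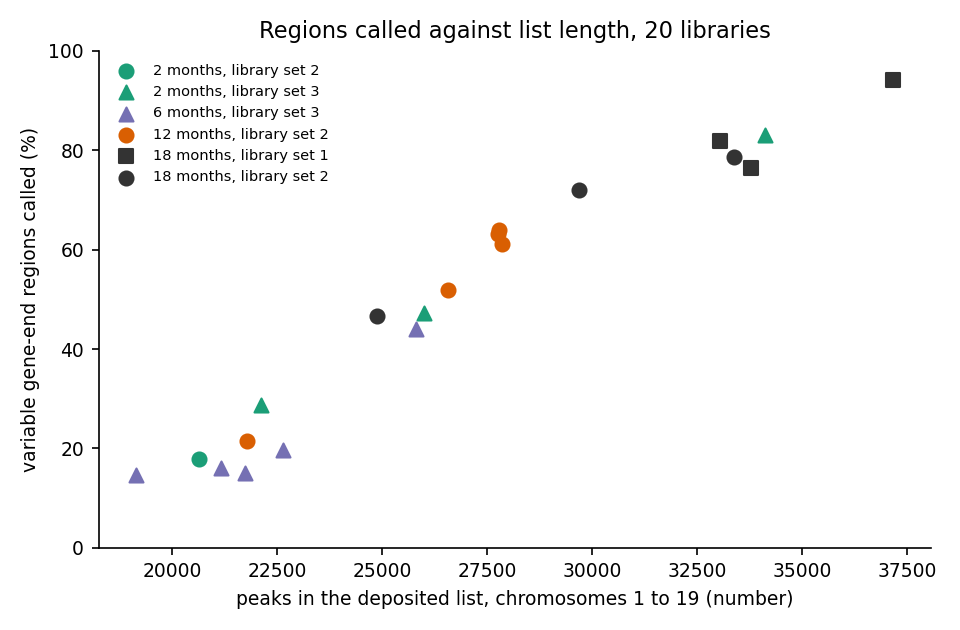
The share of variable gene-end regions called (%) is plotted against the number of peaks in the deposited list for each of the 20 libraries, coloured by age and shaped by library set. The points rise from 14.7% in the shortest list to 94.2% in the longest, and the 2-month library with a long list (83.1%) stands among the libraries of 18 months.

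The share followed the length of the list closely. The 7 libraries with the shortest lists called 14.7% to 28.6% of the regions and the 7 with the longest called 61.2% to 94.2%. Ranked by share and by list length, 14 of 20 libraries differed by at most 1 place and none by more than 2. Ranked by implied background, a measure of relative depth recovered from each peak's fold and p-value, libraries differed by up to 15 places. Peaks in the variable regions made up only 1.16% to 4.42% of any list. A longer list still holds more calls of regions that only some libraries called, so the match of share and list length was partly set in advance. A region called by a given number of libraries was called mostly by those with the longest lists: on average 74.2% of a variable region's calls fell in the longest lists, taken in the same number as its calls, while it was called by 49.9% of the libraries on average. In 40 of the 1662 regions all calls did, against 538 of all 19011 regions tested and 246 of the 10473 variable regions away from gene ends. For variable regions away from gene ends the averages were 70.8% and 46.1%, and for all regions tested 66.8% and 43.2%.

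When every list was shortened to its 19144 strongest peaks, as many as the shortest list holds, the differences between ages in percentage points became smaller. The cut drops the lowest-ranked peaks, and the mean share over all 20 libraries fell from 49.9% to 15.9%. Gaps in points shrink with the shares. The shares then were 13.3% to 18.4% at 2 months with a median of 17.3%, 7.94% to 14.7% at 6 months with a median of 9.81%, 12.0% to 19.6% at 12 months with a median of 15.9%, and 14.5% to 25.1% at 18 months with a median of 19.1%. The difference between the medians of 18 and 2 months was 39.6 percentage points in the lists as deposited and 1.84 in the equal lists. The 6-month libraries remained the lowest group by median, and their range overlapped that of every other age.

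**Figure D4:**
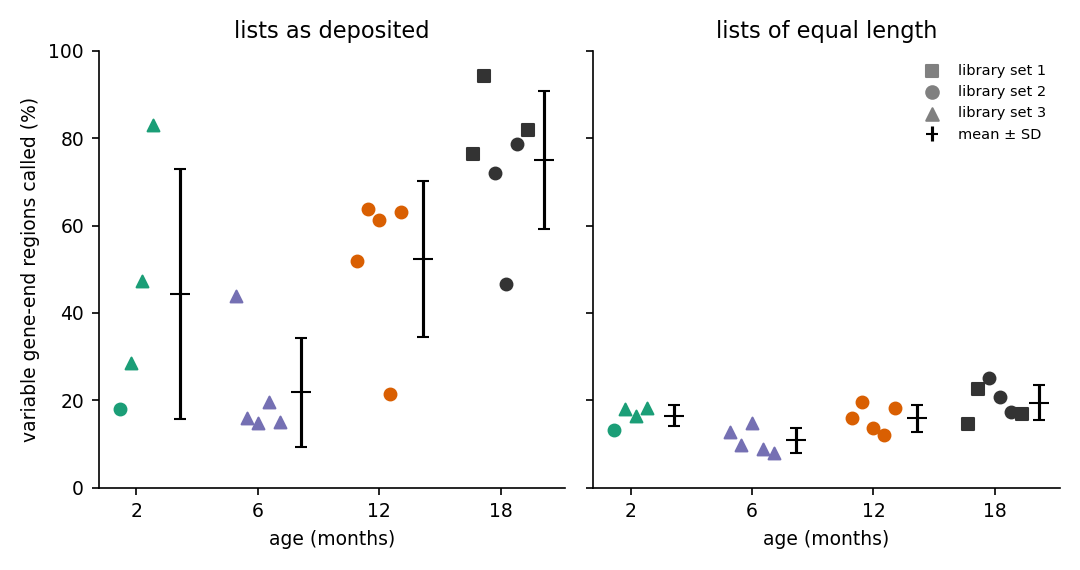
The share of variable gene-end regions called (%) is plotted for each library by age (months), in the lists as deposited (left) and in lists of equal length (right), with the mean ± SD beside each group and the shape giving the library set. The median at 18 months falls from 77.6% to 19.1% and that at 2 months from 38.0% to 17.3%.

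Called against age, 95 of the 1662 variable gene-end regions (5.72%) had more calls in older animals and 1 (0.0602%) had fewer, in an exact trend test on the summed age of the libraries with a call, the number of calls held fixed (Benjamini-Hochberg at 0.05 over 19011 regions). Of all 19011 regions tested, 5.29% passed toward older and 1.92% toward younger animals, so the share of variable gene ends with more calls at older ages was near that of open regions in general. The direction, without regard to the threshold, was toward older animals in 1532 of the 1662 (92.2%) and in 86.8% of all regions tested. In equal lists it was so in 479 of 735 (65.2%) and in 59.6% of all, and with strata of list length, added after seeing the data, in 954 of 1662 (57.4%) and in 54.9% of all. Of the regions at a start 52 of 1022 passed, of those at a transcription end 16 of 266, and of those with strand unknown 27 of 374, with the only region called less often. Single libraries carried much of this count. It became 402 (24.2%) without 2 months replicate 4, the young animal with a long list, where 19.3% of all regions tested passed toward older animals. Without 18 months replicate 4 it was 167 (10.0%, against 8.84% of all). It became 63, 60 and 38 without 6 months replicates 2, 3 and 5 (3.79%, 3.61% and 2.29%, against 3.06%, 3.14% and 1.60% of all). Without 18 months replicates 1, 2, 5 and 6 it was 33, 29, 28 and 30 (1.99%, 1.74%, 1.68% and 1.81%, against 1.77%, 1.52%, 1.78% and 1.75% of all). The share of all open regions moved in the same direction as that of the variable gene ends under each of these omissions. It did not without 6 months replicate 1, 12 months replicate 1 or 12 months replicate 4. There the share of variable gene ends rose (6.44%, 5.78% and 6.56%) and that of all regions fell (4.66%, 4.12% and 4.54%).

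The same regions were tested against list length, a comparison added after seeing the data. List length counts the calls themselves, so a lean toward longer lists was in large part set in advance. Of the regions, 1056 of 1662 (63.5%) were called more often in longer lists, where the share of all regions was 56%, and 1 more often in shorter lists, where it was 1.06%. That region, named after its values were seen, lay by Hmgn3, the gene of a nucleosome-binding protein, and was called in 1, 3, 1 and 0 libraries of 2, 6, 12 and 18 months. In lists of equal length, 735 of the 1662 were called in 3 to 17 libraries and could be tested. Of these, 14 passed toward older and 1 toward younger animals, where 0.82% and 2.09% of all regions tested in the equal lists did. Stratified by library set, 0 passed in either direction by the exact trend test, and of all regions 0% and 0% did. The unadjusted p of this test was under 0.05 in 19 toward older (1.14%, against 0.889% of all regions) and 14 toward younger animals (0.842%, against 1.15%). Stratified by list length in 4 strata of 5 libraries, again added after seeing the data, 0 passed in either direction, and of all regions 0% and 0% did. The unadjusted counts here were 69 (4.15%, against 3.19% of all regions) and 17 (1.02%, against 2.74%). These strata leave little room: for 55 of the 95 regions no arrangement of calls within sets, and for 44 of the 95 no arrangement within list-length strata, gives an unadjusted p under 0.05.

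The 10 regions with the smallest trend p among those called more often with age were all called in 6 of 6 libraries of 18 months and in 0 libraries of 2 and of 6 months. All 10 were also called more often in longer lists (adjusted p = 0.0108 to 0.0230, exact test on the rank of list length). Srrm3, which encodes a splicing regulator of neuronal microexons, and Unc13a were called in no 12-month library either (adjusted p = 0.00672 for each, exact trend test). Peaks at the Unc13a start were 3.89-fold to 5.22-fold over background with a median of 4.57, and those at the Srrm3 start 4.95-fold to 6.06-fold with a median of 5.15. These are faint peaks, whose median stood at the 24.6th and 27.5th percentile of their lists. Both genes are best known from neurons. Of 15 neuronal markers 12 had no region at either end, while Stmn2 had one called in 20 libraries, Map2 in 15 and Snap25 in 1. Whether neuronal cells contributed to these peaks was not tested.

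Among the next 7, all with an adjusted p of 0.00859 (exact trend test), the number of 12-month libraries with a call ran from 1 to 4. The start of H2-Q6, a non-classical class I histocompatibility gene, was called in 1 of 5 libraries of 12 months and 6 of 6 of 18 months, with peaks of 4.72-fold to 10.4-fold and a median of 7.08, the highest median of the group. The H2-Q genes are near-identical copies, so reads may belong to a neighbour. Oas2, an interferon-induced antiviral enzyme gene, had peaks in the same numbers of libraries, with a median of 5.91-fold. So did the start of Col18a1, the gene of the basement membrane collagen from which endostatin is cut (median 4.47-fold), and that of Atp8b3, of the phospholipid-transporting ATPase family (4.68-fold). Hoxc6, a homeobox gene of positional identity, was called in 4 of 5 libraries of 12 months from a region 752 bp from an annotated end of the gene (median 6.50-fold). Abca1 at its transcription end and Zfp385c, a zinc finger gene whose end region also lies close to Nkiras2, were called in 3 of 5. Naip2, the gene of an inflammasome sensor with close copies beside it, followed with 2 of 5 and 6 of 6 (adjusted p = 0.0127, exact trend test). Where 50% of a region had to be covered by a library's peaks, Unc13a, Atp8b3 (0.105 each) and Zfp385c (0.145) no longer passed the exact trend test, and with −log10 q of at least 5 Col18a1 (0.0905) and Zfp385c (0.0689) did not.

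**Figure D5:**
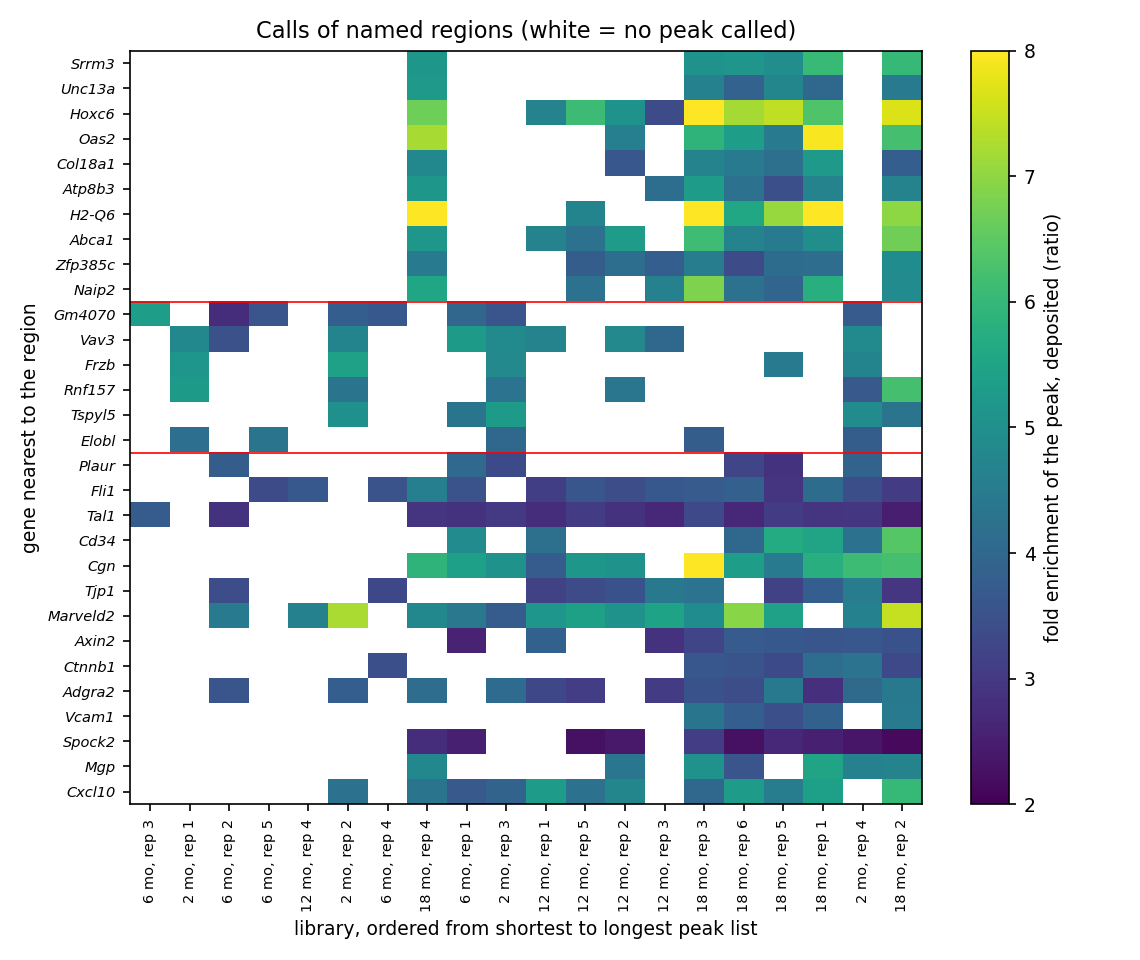
Each row is a named region and each column a library, ordered from the shortest to the longest list; colour gives the deposited fold enrichment (ratio) and white the absence of a call. The upper block was called more often with age, and the middle block holds Gm4070 and 5 regions that did not pass. The lower block holds regions of genes in the lists. Calls in the upper and in the lower block gather at the right, in the longer lists.

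Within library set 2, all 10 were called in 3 of 3 libraries of 18 months, and the number of its 5 libraries of 12 months with a call was 0 for Srrm3 and Unc13a, 1 for H2-Q6, Oas2, Col18a1 and Atp8b3, 2 for Naip2, 3 for Abca1 and Zfp385c and 4 for Hoxc6. None passed the exact trend test stratified by set (adjusted p = 0.878 for each), and the choice of these regions by age fixed most of their pattern.

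Equal lists kept a different selection. Of the 95 regions, 51 had a call in fewer than 3 of the equal lists and were not tested there. Unc13a kept a call in 1 library of 18 months and Srrm3, Col18a1 and Abca1 in 0. Of the 44 tested, 7 passed again. They were H2-Q6 (adjusted p = 0.00947 by the exact trend test, with 1 of 5 libraries of 12 months and 6 of 6 of 18 months), Xpc (0.0121), Hoxc6 (0.0404) and Zfp710 (0.00947), and, named after their values were seen, Gm51593 (0.0121), Slc22a18 (0.0430) and Eefsec (0.0225). Xpc encodes the damage sensor of nucleotide excision repair, Eefsec the elongation factor for selenocysteine and Slc22a18 a transporter of the imprinted Kcnq1 domain. The other 8 regions called in equal lists had not passed in the full ones. Named after their values were seen, they include Cdk10, with 2, 2, 4 and 6 calls of 2, 6, 12 and 18 months in the full lists and 0, 0, 2 and 6 in the equal ones (adjusted p = 0.0121, exact trend test), and Pipox, the gene of a peroxisomal oxidase (0.0299). The only one called less often with age was Csnk1g2, a casein kinase gene, with 4, 1, 0 and 0 calls of 2, 6, 12 and 18 months in the equal lists and 4, 1, 3 and 6 in the full ones.

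The only variable gene-end region called less often with age in the full lists lay 961 bp from an annotated end of Gm4070. It was called in 3 of 4 libraries of 2 months, 5 of 5 of 6 months and 0 of those of 12 and 18 months (adjusted p = 0.0127, exact trend test), with peaks of 2.80-fold to 5.35-fold. All 8 calls were in library set 3 and none in sets 1 and 2, so for this region age and set cannot be told apart, and in equal lists it did not pass (adjusted p = 0.250, exact trend test). The next 5 did not pass. Vav3 was called in 4, 2, 3 and 0 libraries of 2, 6, 12 and 18 months (adjusted p = 0.0725, exact trend test). Frzb, which encodes a secreted Wnt antagonist, had 4, 0, 0 and 1 calls (0.135) and Rnf157, an E3 ubiquitin ligase gene, 4, 0, 1 and 1 (0.155). Tspyl5, a gene of the nucleosome assembly protein family, and Elobl both had 3, 1, 0 and 1 (0.177). Vav3, Frzb and Rnf157 were thus called in every 2-month library, the 2 with short lists included. They were named for leaning toward young animals, and that choice fixed most of this pattern.

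Of all 20665 protein-coding genes, 8.32% had a variable region at an end, 37.6% had an end called in all 20 libraries and 44.6% had no region. Among gene lists of endothelial functions the share with a variable region was 7 of 20 for antigen presentation (35%), 6 of 21 for artery, vein and capillary zonation (28.6%), 5 of 22 for Wnt and beta-catenin signalling (22.7%), 6 of 30 for endothelial identity (20%), 4 of 20 for coagulation and fibrinolysis (20%), 4 of 26 for adhesion and inflammatory response (15.4%), 3 of 25 for extracellular matrix and basement membrane (12%) and 3 of 26 for blood-brain barrier transport and tight junctions (11.5%). In lists of general cell functions it was 3 of 32 for cell cycle and senescence (9.38%), 6 of 62 for the respiratory chain (9.68%), 4 of 39 for DNA repair (10.3%), 7 of 57 for the mitochondrial ribosome and tRNA synthetases (12.3%) and 8 of 60 for cytosolic ribosomal proteins (13.3%). The proteasome (1 of 31), chaperones (2 of 26) and the antioxidant response (1 of 24) were below the value for all genes, and the circadian clock (4 of 19) and replication-dependent histones (6 of 29) above it. Zfp genes had 35 of 391 and olfactory and vomeronasal receptors 3 of 1458. A gene with no region cannot have a variable one, and such genes made up 0% of the proteasome list, 30% of the coagulation list and 98% of the receptors (1429 of 1458). The shares are descriptions of lists that differ in this way and were not tested.

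In antigen presentation, 2 of 8 variable regions were called more often with age, H2-Q6 and Tapbp. Beside this list and those below stand 5.72% of all variable gene-end regions and 5.29% of all regions tested that passed toward older animals. Most lists hold few regions, and their counts were not tested against these shares. The Tapbp region, at the start and 47 bp from the end of Zbtb22, was called in 1, 1, 4 and 6 libraries of 2, 6, 12 and 18 months (adjusted p = 0.0400, exact trend test), with a median of 3.90-fold. H2-Eb1 was called in 0, 0, 1 and 4 and did not pass (0.0725). Vcam1, the leukocyte adhesion molecule gene in both the zonation and the adhesion lists, passed with 0, 0, 0 and 5 calls (0.0209), from faint peaks of 3.46-fold to 4.46-fold and with no call in any equal list. In the adhesion list 1 of 6 regions and in the zonation list 1 of 6 passed, both Vcam1. Cxcl10, a chemokine gene, had 2, 1, 3 and 6 calls (0.114) and Icam1 2, 1, 3 and 5 (0.240), neither past the threshold. Mgp, the gene of matrix Gla protein of arteries, was at 1, 0, 1 and 5 (0.0831) and Spock2, of a matrix proteoglycan, at 1, 1, 2 and 6 (0.0725).

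Of the 6 regions at endothelial identity genes, 1 passed. The region 828 bp from an annotated end of Fli1, an ETS factor gene of the endothelial lineage, was called in 1, 3, 5 and 6 libraries of 2, 6, 12 and 18 months (adjusted p = 0.0467, exact trend test), with a median of 3.54-fold. Tal1, another lineage factor gene, had 2, 3, 4 and 6 calls (0.152) and Cd34 1, 1, 1 and 4 (0.288). None of the 3 regions at barrier genes passed: Cgn, which encodes cingulin, had 2, 1, 3 and 6 calls (0.114), Tjp1 had 1, 2, 4 and 4 (0.288) and Marveld2, which encodes tricellulin, 3, 2, 5 and 5 (0.436). None of the 6 regions at Wnt genes passed either. Axin2, a feedback target, had 1, 1, 2 and 5 calls (0.135), Ctnnb1 1, 1, 0 and 5 (0.152) and Adgra2, a receptor needed for brain vessel growth, 3, 1, 3 and 6 (0.230).

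Passing regions were scattered over the other lists, in small numbers that were not tested against the 5.72% of all variable gene-end regions that passed toward older animals. In DNA repair 2 of 4 passed: Xpc was called in 1, 0, 5 and 6 libraries (adjusted p = 0.0127, exact trend test) from a region 2 bp from an end of the gene and 241 bp from the end of Tmem43, and Neil2, a DNA glycosylase gene, in 0, 0, 3 and 5 (0.0338). In the circadian list 1 of 5 passed, Npas2, a partner of BMAL1, with 0, 2, 5 and 6 calls (0.0147). In the extracellular matrix list 1 of 3 passed, Col18a1, while Nid2, of nidogen, had 2, 1, 2 and 6 calls (0.135) and Hspg2, of perlecan, 1, 2, 3 and 5 (0.169). In the mitochondrial ribosome list 1 of 7 passed, Mrpl22, with 0, 0, 0 and 5 calls 15 bp from its transcription end (0.0209). Among the 35 regions at Zfp genes 2 passed, Zfp385c and Zfp710, which had 1, 2, 5 and 6 calls at its transcription end (0.0400), and among the 3 at receptor genes Olfr212, with 0, 0, 3 and 5 (0.0338). No region of the respiratory chain (6), cytosolic ribosome (8), histone (5), coagulation (4), cell cycle (3), chaperone (2), proteasome (1) or antioxidant (1) lists passed. The histone genes and the shared start of Ndufa7 and Rps28 lie so close together that a peak there cannot be given to 1 gene.

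None of the 8 regions at these markers of other cell types (Myh11, Gja1, Slc1a3, Atp1b2, Spi1 with 2, Map2 and Cnp) passed the trend test. A library called 2 to 8 of them at 2 months with a median of 4, 0 to 4 at 6 months with a median of 2, 4 to 8 at 12 months with a median of 7 and 4 to 8 at 18 months with a median of 6. Of the 9 regions at endothelial identity and barrier genes, libraries called 0 to 9 (median 3), 1 to 7 (median 4), 3 to 7 (median 5) and 5 to 8 (median 7.5) at the same ages. Their part in the age differences was not tested.

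By sex, 0 variable gene-end regions passed Fisher's exact test with Benjamini-Hochberg adjustment in either direction, and of all regions 0% and 0% did. The unadjusted p of this test was under 0.05 in 7 toward males (0.421%, against 1.21% of all regions) and 3 toward females (0.181%, against 0.247%). H1f1, a linker histone gene, was called in 8 of 8 males and 4 of 12 females (unadjusted p = 0.00470, adjusted p = 1, Fisher's exact test). Tspyl3 was called in 0 males and 7 females, and Plaur, the urokinase receptor gene, and Tcte2 in 0 males and 6 females each, none past the adjusted threshold. Psmd9, a proteasome assembly gene, was called in 8 males and 5 females and Sbf2 in 5 and 1.

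Against the implied background, 0 passed in either direction in an exact rank test of the same form with Benjamini-Hochberg adjustment, and of all regions 0% and 0% did. The unadjusted p of this test was under 0.05 in 199 toward higher (12%, against 11.2% of all regions) and 5 toward lower background (0.301%, against 0.894%). The share toward higher background was thus near that of all regions. Those with the smallest p toward higher background had faint peaks: Tmem267 at its transcription end (7 libraries, median 2.62-fold), the start of Foxp1, a forkhead factor gene (15 libraries, 2.97-fold), and Tmeff1 (13 libraries, 3.22-fold). Mkks, a chaperonin-like gene, had a median of 8.02-fold in 9 libraries, Nup37, of the nuclear pore, 5.36-fold in 10 and Whrn, a scaffold gene of hair cells, 4.52-fold in 6, and these leaned toward lower background.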

How the data were processed

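ATAC-seq libraries of 20 animals were used as deposited, with 1 list of narrowPeak calls each. The labels give no read totals, and depth is known here only as the implied background. Per the submitters' processing notes, peaks were made with MACS2 2.1.0 on mm10 after Picard 1.115 and read trimming by Trim Galore 0.4.2, while the aligner is not given in the sources used here. Deposited columns were a peak score, the fold enrichment (a ratio), the −log10 p-value and −log10 q-value, and the summit offset, which the authors' peak caller wrote for each library separately.

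The members and the gene lists were chosen with earlier results of these data known. Gene ends came from RefSeq (GRCm38.p6, 20665 protein-coding genes), and the strand of 16457 of them from its promoter table. Trend, sex and background were tested per region with exact conditional tests in Python 3.11.15 (SciPy 1.17.1) on all 19011 regions called in 3 to 17 libraries, adjusted by Benjamini-Hochberg at 0.05. The implied background of a library is the 1st percentile of the local background that a peak's fold and −log10 p give, and the pileups came out whole, within 0.01 in −log10 p, for 100% of 2000 peaks per library. The tests were checked on simulated data. Animals are the replicates, as the labels give each library its own animal title. Alternatives were lists of equal length, −log10 q of at least 5, 50% of the region covered, strata of library set or age, age as a rank, the older pair of ages against the younger pair, and each library left out. Strata of list length were added after seeing the data.

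Named regions are up to 10 per direction of age that passed, filled to 6 with the smallest p where fewer passed, up to 3 per direction by sex and by background, and up to 3 genes of each of 27 lists. A region carries the name of the gene with the nearest end. Chromosomes X and Y were left out. 1 of the lists is not reported here.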

Additional observations from a re-analysis of the deposited data

Results flagged for a closer look

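2 libraries stood apart from the others of their age in the share of variable gene-end regions they called, by Dixon's ratio of the gap to the range. 6 months replicate 1 called 43.9%, and the other 4 libraries of that age 14.7% to 19.7%. 12 months replicate 4 called 21.4%, and the other 4 libraries of that age 51.9% to 63.9%. The first had the longest list of its age (25804 peaks) and the second the shortest (21779 peaks). 16 groups of values were examined, of which chance sets apart about 1 in 20.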

How the results depend on the processing

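The count of 95 regions called more often with age became 14 in equal lists, 45 with age as a rank, 24 with 12 and 18 months pooled against 2 and 6 months (Fisher's exact test), and 0 under strata of library set or of list length; the last was chosen after seeing the data. Leaving out each library in turn gave 28 to 402. A stricter q (101) and a wider overlap (89) left it within 1.5 times. The 1 region called less often became 3 at −log10 q of at least 5 and 0 under either strata, and was 1 to 2 with each library left out. The difference of 39.6 points between the medians of 18 and 2 months became 1.84 in equal lists, and 30.3 to 48.9 with each library left out. Equal lists test fewer regions, and strata leave fewer arrangements; the cause of the other changes was not tested. Counts by sex and by implied background were 0 under all alternatives run. The trend of Rnf157 turned toward older animals at −log10 q of at least 5 (adjusted p = 0.931, exact trend test). Of the 11 regions named for passing, 3 lost the call where 50% of the region had to be covered, 2 at −log10 q of at least 5, 7 with the ages pooled, 1 in equal lists (of those tested there) and 11 under either strata; Frzb gained one without 18 months replicate 5 (0.0468). No paired analysis was possible because the replicate numbers only name animals in deposition order, and no label ties animals of different ages together. Depth limits every absence of a call: a region without a peak may be open below the threshold.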
